A study of Arabidopsis thaliana with 33 samples.

Results

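The genes described here were silent or nearly so in RNA of wild-type Arabidopsis thaliana seedlings. They were present in RNA of hda6 seedlings and absent or low in that of sant1234-null seedlings. They were chosen by RNA level: under 0.5 FPKM (fragments scaled by transcript length and by library depth) in wild type (WT) in both mutant tables, at least 2 FPKM in hda6 and under 1 FPKM in sant1234-null. Of 32823 genes in the RNA tables, 11810 were under the WT bound and 134 met all bounds. A further 34 silent genes reached 2 FPKM in both mutants, 12 reached 2 FPKM in hda6 with sant1234-null between 1 and 2, and 51 reached 2 FPKM in sant1234-null while under 1 in hda6.

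All plants were untreated 12-day-old seedlings grown on plates in long days, and no sorting of cells is named, so that fewer cells of a type and less RNA per cell cannot be told apart. RNA-seq covered Col-0 WT, an hda6 T-DNA insertion line, the quadruple mutant sant1234-null, an hhp1 T-DNA insertion line and the mbd1/2/4 triple mutant (mbd124), with 3 samples each. ChIP-seq with an antibody against acetylated histone H3 (H3ac) covered WT, sant1234-null and hda6, with 3 ChIP and 3 input samples each. The labels name no mutant allele and do not say how many plants or lines stood behind a sample. Every table held 1 value per genotype, so the FPKM and RPKM values below are the authors' values with no spread between replicates, and tests are those of the authors.

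Histone deacetylases remove acetyl groups from histone tails, and acetylated H3 is found mainly near the starts of transcribed genes. HDA6 is an RPD3-type deacetylase known in Arabidopsis for the silencing of transposable elements (TEs), transgenes and ribosomal RNA genes, alongside DNA methylation. The series title places it in a complex with a domesticated Harbinger transposase and asks about acetylation at genes and at TEs. HDA6 itself stood at 17.0 FPKM in WT against 18.8 in hda6 (adjusted p 0.735 by the authors' deposited table), so its RNA gave no check of the hda6 label. Gene-summed ChIP reads numbered between 68093284 and 78316244 per genotype, and the depth of the RNA libraries is unknown. Markers of other organs were low: 1 of 12 seed genes, 0 of 10 pollen genes, 1 of 10 anther genes and 2 of 10 floral genes reached 1 FPKM in hda6. In WT and hda6 the seed genes summed to 1.17 and 2.55 FPKM, and the pollen genes to 0.479 and 0.780. The anther genes summed to 3.89 and 5.24 FPKM, and the floral genes to 5.42 and 4.31. The authors tested 2 of the 12 seed genes and their deposited table called 2 higher in hda6. These were FUS3 (0.239 FPKM in WT, 1.10 in hda6) and CRA1 (0.402 and 0.988). The same table called the root gene IRT1 (2.34 and 4.29) higher and the floral gene SEP3 (3.68 and 2.2) lower. The 10 root markers summed to 212 FPKM in WT and 239 in hda6. The part of other organs' RNA in the results below was not tested.

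Among the 134 genes, RNA levels in hda6 ran from 2.00 to 267 FPKM with a median of 4.98. The genes were listed at exactly 0 in WT in 89 cases and in sant1234-null in 86, and an exact 0 can be a failed estimate. These levels chose the genes and are given as a description. The authors had tested 113 of the genes in hda6 and called 65 of them higher at an adjusted p under 0.05, beside 7.25% of all tested genes, and 53 of the 65 were listed at 0 in WT. The other 48 tested genes did not pass and 21 were not tested. Of the 134 genes, 33 were shorter than 300 bp, among them the one at 267 FPKM. The authors tested 15 of these short genes and called 5. Since FPKM is scaled by length, a high value over a short gene can rest on few fragments, and fragment counts were not available. In sant1234-null the levels reached 0.947 FPKM, and the authors had tested 7 of the genes there. The highest was that of the myo-inositol oxygenase gene MIOX4, with 0.296 FPKM in WT. The authors' deposited table called MIOX4 higher in sant1234-null as well (adjusted p 0.0226). The members nearest above the hda6 bound were AT4G04995 (2.00 FPKM), MIOX4 (2.02), AT2G08050 (2.05) and AT1G07027 (2.06). Just below it lay AT3G06515 (1.99), AT3G04845 (1.96), AT3G57460 (1.96) and AT3G03085 (1.89).

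**Figure D1:**
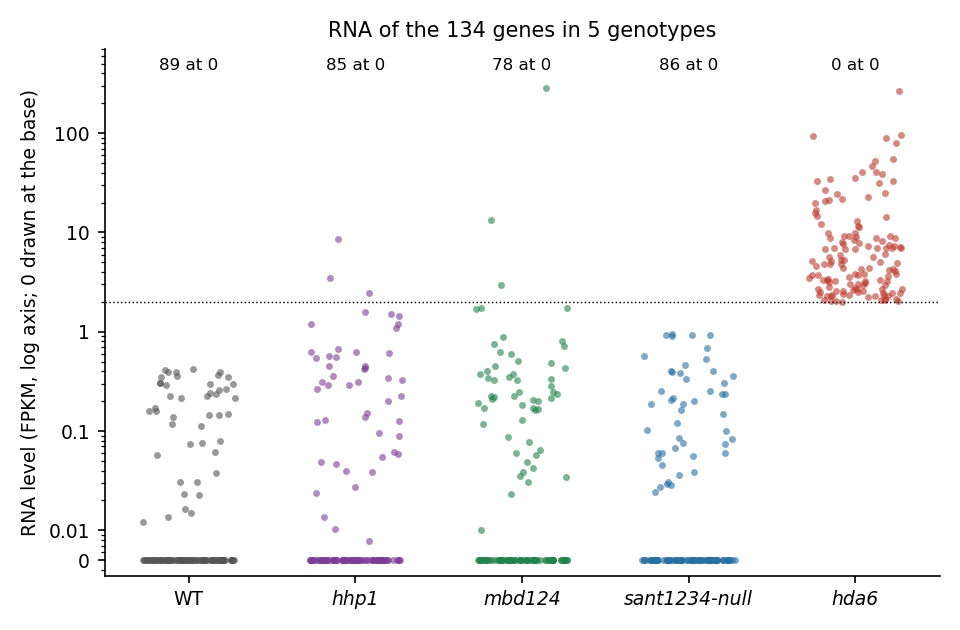
RNA level of the 134 genes (points, FPKM on a log axis with 0 drawn at the base) in WT, hhp1, mbd124, sant1234-null and hda6, with the number listed at 0 above each column and a dotted line at 2 FPKM. In hda6 every gene lies between 2.00 and 267 FPKM by choice, while 89 are listed at 0 in WT and single genes reach 8.63 in hhp1 and 282 in mbd124.

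The protein-coding gene with the highest hda6 level was AT5G03090 (chromosome 5, 725281 to 725962, plus strand, TAIR10), annotated as a Mto 1 responding down protein. Its RNA was listed at 0 FPKM in WT, 0 in sant1234-null, 0.426 in hhp1, 0.343 in mbd124 and 93.1 in hda6 (adjusted p 0.000899, the smallest value of the authors' deposited table for hda6). H3ac over this gene, which the selection did not use, was 12.0 RPKM (reads scaled by gene length and by mapped reads) in WT, 11.4 in sant1234-null and 97.8 in hda6. These rest on 574 reads in WT (95% Poisson interval 528 to 623), 624 in sant1234-null (576 to 675) and 4727 in hda6 (4593 to 4864). WT and sant1234-null thus lay close together and hda6 far above both. Such intervals cover counting error only. The H3ac peak lay 421 bp inside the gene from its start, with a log2 concentration of 0.72 in WT and 9.30 in hda6 (FDR 6.14e-32) in the authors' deposited table. The nearest TE lay 17408 bp away. The 250 bases before the annotated start (chr5:725031-725280, plus strand, read like all sequences here from the RefSeq TAIR10.1 genome) are printed because this gene gained H3ac far from any TE, and capitals mark each CG, the site of methylation maintained by MET1.

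AT5G03090: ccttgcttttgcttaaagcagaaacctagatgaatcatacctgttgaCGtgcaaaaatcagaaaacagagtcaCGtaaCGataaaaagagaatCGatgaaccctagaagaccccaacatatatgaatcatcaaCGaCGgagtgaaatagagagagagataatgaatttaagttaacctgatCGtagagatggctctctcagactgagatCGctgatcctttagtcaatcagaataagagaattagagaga

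A trio of ovate-family genes, annotated as transcription repressors, are near-identical copies on different chromosomes: OFP9 (AT4G04030, chromosome 4, 1936653 to 1937972, minus strand), AT3G54730 (chromosome 3, 20259003 to 20260458, plus strand) and AT2G19850 (chromosome 2, 8568569 to 8569890, plus strand). They were between 98.02% and 99.31% identical over 89.7% or more of their length. OFP9 RNA was at 0 FPKM in WT, 0.0561 in sant1234-null, 0 in hhp1, 0.236 in mbd124 and 55.6 in hda6. AT3G54730 was listed at 0.145 FPKM in WT, 0.0361 in sant1234-null, 0.0237 in hhp1, 0.224 in mbd124 and 53.1 in hda6. AT2G19850 was listed at 0.170 FPKM in WT, 0.149 in sant1234-null, 0.126 in hhp1, 0.193 in mbd124 and 26.5 in hda6. All 3 were thus near 0 in the other 4 genotypes, although the authors' deposited table called OFP9 alone (adjusted p 0.000899, against 0.330 for AT3G54730 and 0.491 for AT2G19850). The sources used here do not say how reads shared between copies were assigned, in RNA or in ChIP, so the level of each copy is uncertain.

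H3ac rose over all 3 copies in hda6. OFP9 had 9.24 RPKM in WT, 8.77 in sant1234-null and 51.5 in hda6. AT3G54730 had 8.40, 7.83 and 50.7 RPKM in the same order, and AT2G19850 had 8.38, 7.76 and 32.3. In the authors' deposited table the peaks over OFP9, AT3G54730 and AT2G19850 had hda6 log2 concentrations of 6.32, 6.39 and 6.04, with FDR of 1.83e-08, 1.79e-09 and 4.87e-08. Those of WT were 0.40, 0 and 0. The peaks were centred 55, 178 and 72 bp inside the gene. The sequences before the annotated starts of AT3G54730 and AT2G19850 are shown because these windows differed: over the 250 bases, 50.4% of aligned positions were identical. Whether the annotated starts fall at matching positions of the copies was not checked. The windows may therefore be offset, and they do not show whether the copies differ upstream. Against the windows of an unrelated gene pair, HISN6A and HISN6B (described next), the same alignment gave 49.3% to 51.7%. The windows are chr3:20258753-20259002 and chr2:8568319-8568568 (both plus strand), with each CG in capitals.

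AT3G54730: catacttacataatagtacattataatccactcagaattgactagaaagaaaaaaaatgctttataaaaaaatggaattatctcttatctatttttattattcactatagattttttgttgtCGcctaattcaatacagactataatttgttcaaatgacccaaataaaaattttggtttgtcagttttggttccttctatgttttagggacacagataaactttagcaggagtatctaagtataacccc

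AT2G19850: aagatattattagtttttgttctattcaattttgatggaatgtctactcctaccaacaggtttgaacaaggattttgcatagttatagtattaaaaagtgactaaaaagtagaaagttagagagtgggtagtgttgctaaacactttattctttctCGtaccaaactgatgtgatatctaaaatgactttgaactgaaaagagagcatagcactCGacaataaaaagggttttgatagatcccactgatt

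The windows held 1 and 2 CG sites. TEs covered 7.67% of the bases within 50 kb on each side of AT3G54730, 19.8% around AT2G19850 and 78.7% around OFP9.

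HISN6B (AT1G71920, chromosome 1, 27066948 to 27069166, plus strand) is the second Arabidopsis gene for histidinol-phosphate aminotransferase, an enzyme of histidine synthesis, and was 99.5% identical to HISN6A (AT5G10330). Both carry the symbol HISN6A in the deposited tables and are named here as in RefSeq. HISN6B was listed at 0.0578 FPKM in WT, 0.0309 in sant1234-null, 0.154 in hhp1, 0.0880 in mbd124 and 13.0 in hda6 (adjusted p 0.582 by the authors' deposited table). HISN6A had 8.28 FPKM in WT, 7.66 in sant1234-null and 8.88 in hda6 (adjusted p 0.861 by the authors' deposited table). HISN6B was thus listed near 0 beside an expressed copy in WT and above it in hda6. The assignment of reads shared between these copies is unknown, so the level of each is uncertain. H3ac over HISN6B was 9.28 RPKM in WT, 8.96 in sant1234-null and 14.2 in hda6, and its peak did not pass the authors' test (FDR 0.674 in the authors' deposited table). The windows before the annotated starts of both genes are shown because they differed, although here too matching of the starts was not checked. They are HISN6B at chr1:27066698-27066947 (plus strand) and HISN6A at chr5:3250965-3251214 (minus strand), with CG in capitals.

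HISN6B: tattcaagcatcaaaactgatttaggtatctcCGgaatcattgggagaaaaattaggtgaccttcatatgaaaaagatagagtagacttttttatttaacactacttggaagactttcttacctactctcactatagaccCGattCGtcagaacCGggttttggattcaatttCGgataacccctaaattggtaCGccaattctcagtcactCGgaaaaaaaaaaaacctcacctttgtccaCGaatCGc

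HISN6A: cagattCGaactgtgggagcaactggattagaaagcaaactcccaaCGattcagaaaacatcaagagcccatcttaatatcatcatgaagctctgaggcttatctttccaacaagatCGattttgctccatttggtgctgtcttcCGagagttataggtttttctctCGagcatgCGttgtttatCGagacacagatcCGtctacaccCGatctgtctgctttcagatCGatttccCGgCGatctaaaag

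They held 9 and 12 CG sites and were identical at 50.9% of aligned positions. The HISN6A window overlaps the TE AT5TE11830, and the HISN6B window overlaps no TE. Over all 134 genes the upstream window held a median of 5 CG sites, beside 4 for the 11463 other silent nuclear genes and 5 for all 32538 nuclear genes. These medians differ by at most 1 site.

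H3ac was measured in other libraries than RNA and was not used to choose the genes. The median log2 ratio of hda6 over WT, from RPKM + 1, was 0.66 for the 134 genes, 0.29 for the 11676 other silent genes and 0.08 for all genes. The median of sant1234-null over WT was -0.03 for the 134 genes, 0.26 for other silent genes and 0.08 for all genes. A ratio of 1.5 or more over WT was met by 75 of the 134 genes in hda6, beside 9.48% of all genes and 19.9% of other silent genes. The same ratio was met in sant1234-null by 14 of them, beside 12.2% and 23% (from all and other silent genes). Of the 75 genes, 64 were under the ratio in sant1234-null and 11 met it in both mutants. Set directly against sant1234-null, hda6 had 1.5 times the H3ac or more at 64 of the 134 genes, beside 1.61% of all genes and 3.32% of other silent genes. No input was subtracted from these RPKM values, and the median level of the genes in WT, 9.16 RPKM, was close to the 10.7 RPKM of all genes.

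**Figure D2:**
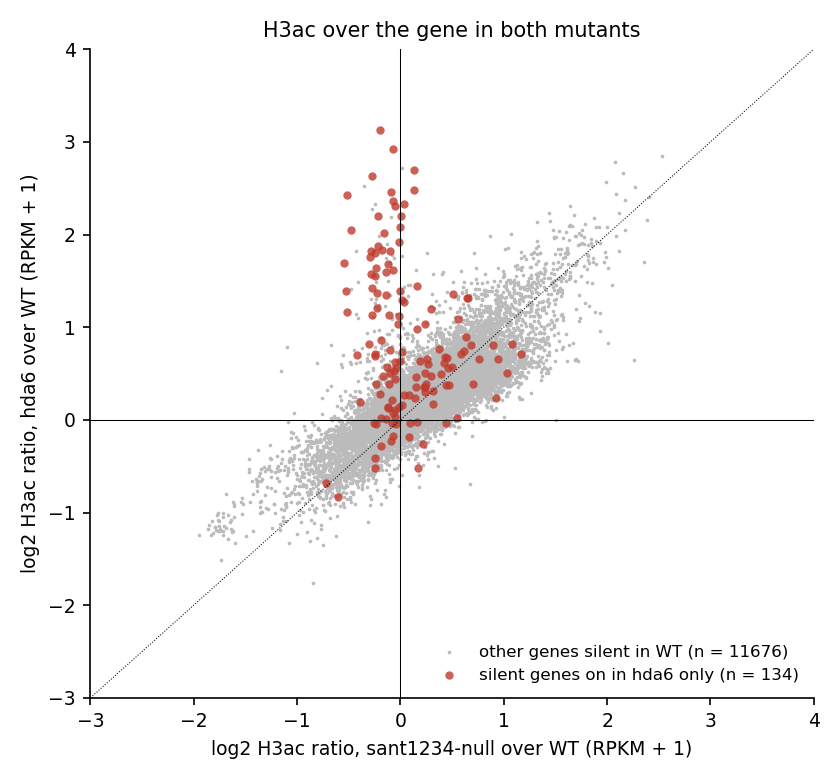
Log2 H3ac ratio over the gene in sant1234-null (x axis) and in hda6 (y axis), each over WT from RPKM + 1, for the 134 genes (red) and the 11676 other genes silent in WT (grey); the dotted line marks equal ratios. Other silent genes lie along the diagonal, while many red points form an arm near 0 on the x axis that reaches 3.13 on the y axis.

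The 10 genes with the largest H3ac ratio of hda6 over WT had log2 ratios from 2.31 to 3.13. They were AT4G07965, AT5G03090, AT1G06987, AT3G06955, AT1G47265, AT3G54730, AT3G28899, OFP9, AT1G06963 and AT2G15555. AT4G07965, annotated as an uncharacterized protein, had the largest ratio with 9.82 RPKM in WT, 8.42 in sant1234-null and 93.6 in hda6, from 494, 485 and 4761 reads. Its RNA was listed at 0 FPKM in WT, sant1234-null, hhp1 and mbd124 and at 7.01 in hda6. AT3G06955, a non-coding RNA gene of 203 bp, had 16.4 RPKM in WT, 13.4 in sant1234-null and 107 in hda6, and its RNA was listed at 0 FPKM in the other 4 genotypes and at 79.5 in hda6. The non-coding RNA gene AT2G15555, which overlaps a TE, had 8.28, 7.97 and 45.0 RPKM in WT, sant1234-null and hda6 and 89.6 FPKM in hda6, with 0 in WT and 0.0613 or less in the other mutants. In each of these genes sant1234-null lay close to or below WT and hda6 stood alone.

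The 5 lowest ratios belonged to MIR4228 (AT1G09687, log2 ratio -0.83), AT5G08870 (-0.68), AT1G06867 (-0.52), the beta-galactosidase related gene AT5G35760 (-0.52) and AT1G05757 (-0.42). MIR4228, a microRNA precursor of 158 bp, had the highest RNA level in hda6, 267 FPKM, and 282 FPKM in mbd124, with 0 in WT, hhp1 and sant1234-null. The authors tested it in neither hda6 nor mbd124. H3ac over it was 172 RPKM in WT, 113 in sant1234-null and 96.2 in hda6. The antisense RNA genes AT5G08870 and AT1G05757 and the non-coding RNA gene AT1G06867 overlap other genes. H3ac over AT5G35760 was 31.4 RPKM in WT, 35.4 in sant1234-null and 21.6 in hda6.

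**Figure D3:**
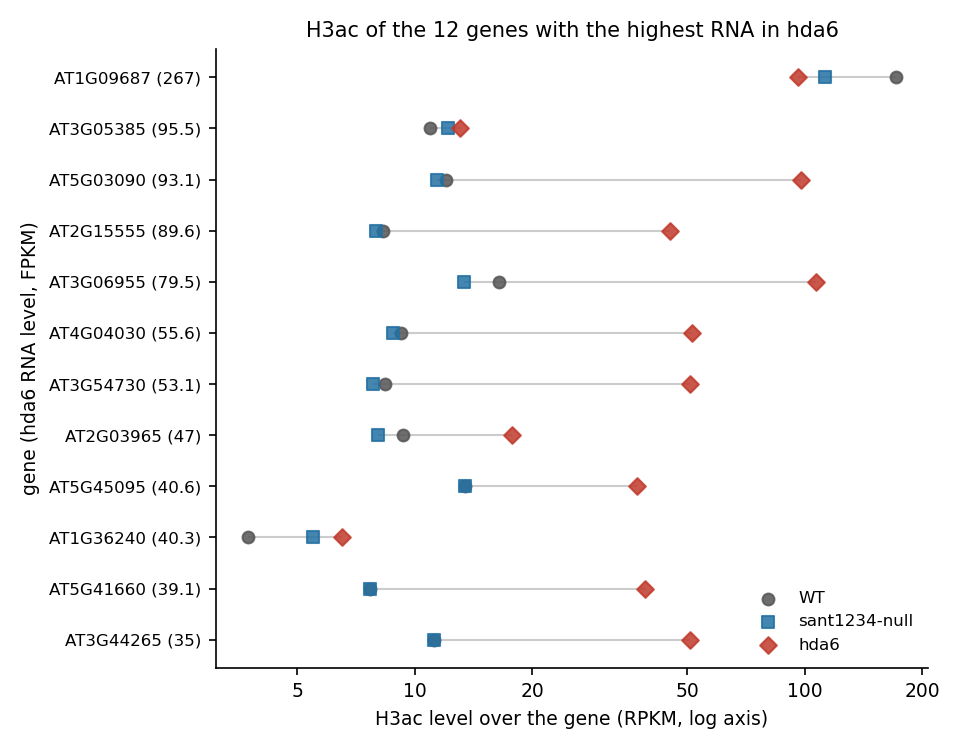
H3ac level (RPKM, log axis) in WT (circles), sant1234-null (squares) and hda6 (diamonds) over the 12 genes with the highest RNA level in hda6, which stands in brackets in FPKM. In 9 of the 12 genes hda6 lies at 17.7 RPKM or more while WT and sant1234-null lie together between 7.67 and 16.4 RPKM. MIR4228 (AT1G09687) runs the other way, and AT3G05385 and AT1G36240 lie at 13.0 RPKM or below in all 3 genotypes. Within that range AT1G36240 rises from 3.74 RPKM in WT to 5.49 in sant1234-null and 6.52 in hda6.

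The authors' peak tables compare each mutant with WT at H3ac peaks. In the authors' deposited table, an H3ac peak overlapping the gene was higher in hda6 (FDR under 0.05) for 45 of the 134 genes, beside 3.16% of all genes and 4.64% of other silent genes. Of genes with any listed peak, these were 45 of 73, beside 5.3% over all genes. The 34 silent genes at 2 FPKM or more in both mutants had such a peak in 14 cases (41.2%), against 33.6% of the 134. A higher hda6 peak was thus not particular to the 134 genes. A higher sant1234-null peak overlapped 21 of those 34. Among the 134 genes a lower hda6 peak overlapped 4, beside 17.9% of all genes and 1.34% of other silent genes. These were MIR4228, AT5G08870, AT5G35760 and the aspartyl protease gene AT3G30770, which also had a higher one. A peak without a call overlapped 25 further genes, and 61 genes had no listed peak. In sant1234-null a higher peak overlapped 3 of the 134 genes, beside 10.6% of all genes and 12.1% of other silent genes. Of genes with any listed peak these were 3 of 21, beside 17.2% over all genes. A lower sant1234-null peak overlapped AT5G08870, beside 10.4% and 0.831%. Each peak table lists its own peaks, and 5 of the 45 genes had a peak in the sant1234-null table, so the others could not be tested there.

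The 45 genes make 44 separate loci, since AT2G03965 and AT2G04655 overlap and share a peak. Where a gene had several listed peaks, the values are those of the peak with the lowest p-value. The centre lay within 500 bp of the annotated gene start for 40 of the 45 genes, and the median centre was 262 bp inside the gene. Log2 concentrations in the authors' deposited table ran from 4.99 to 9.39 in hda6, with a median of 7.16. In WT their median was 0.73 and 19 of the 45 were listed at 0. The 10 with the largest fold in the authors' deposited table were AT4G29200, AT1G06963, AT1G06987, AT2G46765, AT5G35375, AT1G07347, AT3G14670, AT3G54730, AT5G03090 and AT3G25719. WT was listed at 0 for all of these but AT5G03090, so the order is mostly that of folds over a floor and the folds are not given. AT4G29200 stood first, with log2 concentrations of 0 in WT and 8.95 in hda6 (FDR 4.94e-18), and its peak lay farthest from the start, at 1116 bp.

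**Figure D4:**
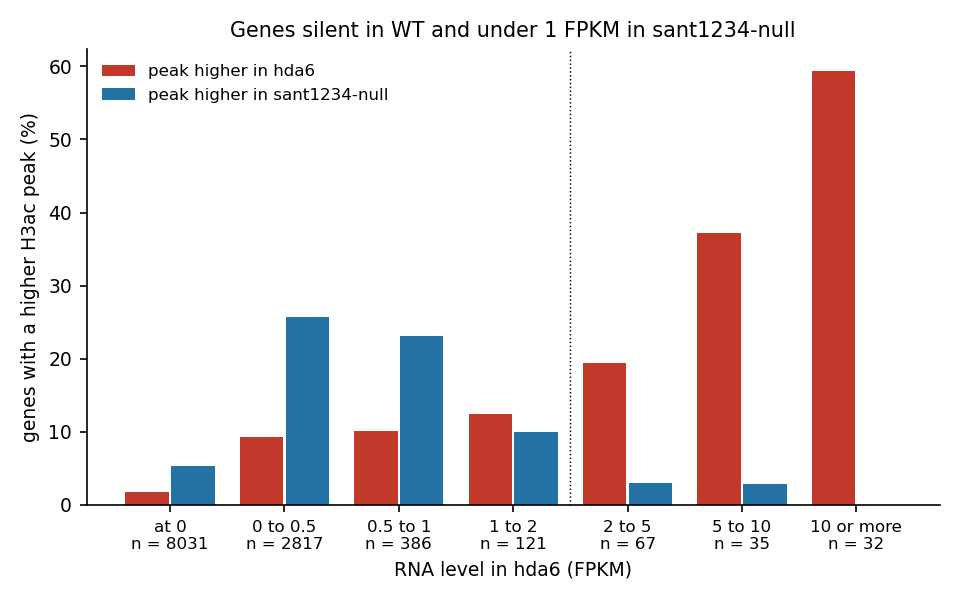
Share (%) of genes silent in WT and under 1 FPKM in sant1234-null that overlap an H3ac peak called higher in hda6 (red) or in sant1234-null (blue), by RNA level in hda6; n below each band is the number of genes and the dotted line marks the bound of 2 FPKM. The red share runs from 1.72% of genes at 0 FPKM to 59.4% of genes at 10 FPKM or more, where the blue share is 0 of 32. In the bands under 1 FPKM the blue share is the higher, up to 25.8%.

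The share of genes with a higher hda6 peak followed the RNA level in hda6. It was 1.72% of 8031 genes at 0 FPKM and 12.4% of 121 genes between 1 and 2, both outside the bound. It was 19.4% of 67 genes between 2 and 5 FPKM, 37.1% of 35 between 5 and 10, and 59.4% of 32 at 10 or more. Higher sant1234-null peaks were the more frequent under 1 FPKM. They overlapped 5.35% of genes at 0 FPKM, 25.8% between 0 and 0.5 and 23.1% between 0.5 and 1. The hda6 shares in the last 2 of these bands were 9.30% and 10.1%. Across the 134 genes Spearman's rho between hda6 FPKM and the log2 H3ac ratio was 0.49, a description across genes that share the same libraries. Of the 65 genes with an RNA call, 30 had a higher peak and the median log2 H3ac ratio was 1.03. The 48 genes tested without a call had 15 such peaks and a median of 0.66, and the 21 untested genes had 0 and 0.30.

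RefSeq lists 77 of the genes as protein-coding, 50 as lncRNA, 3 as ncRNA, 3 as microRNA precursors and 1 as a snoRNA gene. Protein-coding genes made up 57.5% of the 134, 62.6% of other silent genes and 83.6% of all genes, and lncRNA genes 37.3%, 23.1% and 10.6%. Among them were 34 genes for uncharacterized proteins, 13 genes annotated as natural antisense transcripts and 40 non-coding RNA genes without that annotation. Some of the 40 also lie opposite another gene, such as AT2G04655 (minus strand), which overlaps AT2G03965 (plus strand). The uncharacterized proteins had a median log2 H3ac ratio of 1.24, and 16 of 34 had a higher hda6 peak. AT2G03965, AT5G45095 and AT5G41660 led this class with 47.0, 40.6 and 39.1 FPKM in hda6. AT5G45095 had 13.5 RPKM of H3ac in WT, 13.5 in sant1234-null and 37.1 in hda6, and AT5G41660 had 7.67, 7.68 and 38.9. The 40 other non-coding genes had a median of 0.86 and 15 higher peaks. Their highest RNA level, 95.5 FPKM, was that of AT3G05385, which overlaps an expressed gene and had 10.9, 12.1 and 13.0 RPKM of H3ac in WT, sant1234-null and hda6.

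Natural antisense transcripts, which are read from the opposite strand of another gene, had a median log2 H3ac ratio of -0.03 and 1 higher peak, at AT2G05914. That gene had 0.0310 FPKM in WT against 24.7 in hda6, with 9.31 RPKM of H3ac in WT and 30.2 in hda6. AT2G07213 followed with 9.27 FPKM in hda6 and 9.93 RPKM of H3ac in WT against 39.1 in hda6 (peak FDR 0.0512 in the authors' deposited table), and AT1G05023 with 4.10 FPKM. None of the 10 tested antisense transcripts was called in RNA by the authors. No source used here says whether counting used the strand, so reads of an antisense transcript and of its partner cannot be told apart. The same holds for other members that overlap a gene on the opposite strand. Of all 134 genes, 39 overlap another gene and 20 overlap one at 1 FPKM or more in WT. Those 20 had a median log2 H3ac ratio of 0.11, 1 higher peak and 0 RNA calls among 14 tested. All 39 had 0.48, 8 higher peaks and 9 calls among 33 tested. The 95 genes that overlap no other gene had 0.73, 37 higher peaks and 56 calls among 80 tested. Median length was 304.5 bp for the 20 and 733 bp for the 95.

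The counts by protein family follow from the RNA levels that chose the genes, and over all classes 134 of 11810 silent genes (1.13%) were chosen. Beta-galactosidase related genes, whose family includes enzymes that act on cell wall sugars, gave 6 of the 21 silent among 38 annotated. AT3G44265, AT4G29200 and AT5G01080 led them with 35.04, 31.2 and 7.13 FPKM in hda6 and 0 in sant1234-null. Over AT3G44265 H3ac was 11.2 RPKM in WT, 11.2 in sant1234-null and 50.8 in hda6, with a peak FDR of 8.65e-42 in the authors' deposited table. Over AT4G29200 it was 6.42, 5.66 and 29.1, but over AT5G01080 it was 9.43, 9.09 and 10.2. The family therefore held genes with and without an H3ac gain. Ulp1 protease and DUF1985 genes, a family whose Ulp1 domain belongs to SUMO-cleaving enzymes, gave 4 of 13 silent genes. These are not all separate cases, since AT5G28235 was 99.4% and AT5G28810 92.8% identical to AT5G45570 and the assignment of shared reads is unknown. AT5G45570 (21.0 FPKM in hda6), AT5G28810 (8.999) and AT5G28235 (7.60) had H3ac of 8.39, 7.37 and 7.92 RPKM in WT and 13.5, 10.4 and 8.40 in hda6. Genes annotated as retrotransposon or transposase proteins gave 4 of 48 silent genes. They were led by AT2G41590 (3.45 FPKM), AT3G30820 (3.27) and AT2G16676 (2.12), and 0 of the 4 reached a ratio of 1.5.

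The share with a near-identical copy was close to that of other silent genes. A copy elsewhere, at least 90% identical over 80% of the gene, existed for 20 of the 134 genes (14.9%), beside 12.2% of other silent genes and 4.93% of all genes. In 7 cases a copy stood at 1 FPKM or more in WT. AT1G27565, annotated as an uncharacterized protein, was 98.4% identical to AT1G52905 and had 0 FPKM in WT against 22.7 in hda6, while AT1G52905 had 15.5 and 15.0. Here too the assignment of shared reads is unknown. Another 7 genes had a copy that was itself among the 134, including the 3 ovate-family genes.

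SDC (AT2G17690), an F-box gene known to be silenced by DNA methylation in vegetative tissue, was the 1 gene of the lists examined that was among the 134. Its RNA was at 0 FPKM in WT, 0.0385 in sant1234-null, 0.0271 in hhp1, 0.0309 in mbd124 and 7.95 in hda6 (adjusted p 0.405 by the authors' deposited table). H3ac over SDC was 7.74 RPKM in WT, 16.9 in sant1234-null and 11.5 in hda6. The order of the mutants was thus the reverse of that of its RNA. In the authors' deposited table the sant1234-null peak was higher than WT (log2 concentrations 4.86 and 7.51, FDR 0.00386) and the hda6 peak did not pass (4.61 and 6.11, FDR 0.0706). This peak lay 1015 bp from the SDC start, in a gene that overlaps AT2G17695, which was at 25.8 FPKM in WT. The other 2 genes with a higher sant1234-null peak, AT3G27473 (FDR 5.13e-11) and the antisense gene AT2G07805 (FDR 1.98e-06 in the authors' deposited table), also overlap another gene.

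Of the other silenced reporter genes, FWA stood at 0 FPKM in WT and at 0.0739 in hda6 and was not tested. QQS, above the WT bound, went from 4.08 FPKM in WT to 139 in hda6, which the authors' deposited table called (adjusted p 0.000899). Among 19 genes of DNA methylation and silencing, 0 were called higher in hda6 and 1 lower, beside 7.25% and 4.79% of all tested genes. It was ROS1, a DNA demethylase, with 12.0 FPKM in WT against 4.69 in hda6 (adjusted p 0.000899 by the authors' deposited table). Of 7 Polycomb genes 0 were called. Of 12 RPD3-type deacetylase genes 9 were tested in hda6, of which 1 was called higher, HDA18, and 1 lower, HDA14. HDA18 was low, at 0.333 FPKM in WT and 0.965 in hda6, and stood at 2.17 in sant1234-null. HDA14 had 17.0 FPKM in WT and 11.2 in hda6.

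In hhp1 and mbd124 most of the genes stayed silent. These tables share the WT libraries with the tables that chose the genes. In hhp1, 9 of the 134 genes reached 1 FPKM, beside 0.771% of other silent genes, and in mbd124 6 did, beside 0.976%. In all, 85 of the 134 were listed at 0 in hhp1 and 78 in mbd124. The authors tested 10 of them in hhp1 and called 2 higher, beside 2.88% of all tested genes, and tested 7 in mbd124 and called 1 higher, beside 4.85%. AT3G26539, annotated as an uncharacterized protein, was called in both. It was listed at 0 FPKM in WT, 0 in sant1234-null, 8.63 in hhp1, 13.5 in mbd124 and 11.4 in hda6 (adjusted p 0.0201 for hhp1, 0.0172 for mbd124 and 0.0206 for hda6 in the authors' deposited tables). Its H3ac was 4.61 RPKM in WT, 8.02 in sant1234-null and 8.79 in hda6. AT3G49340, a cysteine proteinase gene, was listed in the hhp1 table at 0.248 FPKM in WT and 1.19 in hhp1 (adjusted p 0.0166 by the authors' deposited table) and at 2.94 in hda6. Of the genes at 1 FPKM or more, 3 in hhp1 and 1 in mbd124 were at least 300 bp long and free of an overlapping gene.

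The genes lay on all 5 chromosomes (36, 32, 31, 17 and 18 on chromosomes 1 to 5), often in TE-rich surroundings. TEs of the deposited tables covered a median of 22.5% of the bases within 50 kb on each side, beside 8.85% for other silent genes and 7.05% for all genes. Cover was above 50% around 43 of the 134 genes (32.1%), beside 6.89% of other silent genes and 3.80% of all genes. The TE-dense group included OFP9 and AT4G07965, and genes such as AT5G03090 (3.74%) and AT4G29200 (11.1%) lay outside it. Direct overlap with a TE was less distinct: 26 of the 134 genes overlapped one (19.4%), beside 13% of all genes and 12.8% of other silent genes. A TE lay within 1 kb of the gene for 66.4%, beside 43.0% of other silent genes and 37.1% of all genes. The 26 genes with an overlapping TE had a median log2 H3ac ratio of 0.74 and 10 higher peaks, and the 108 without had 0.66 and 35.

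**Figure D5:**
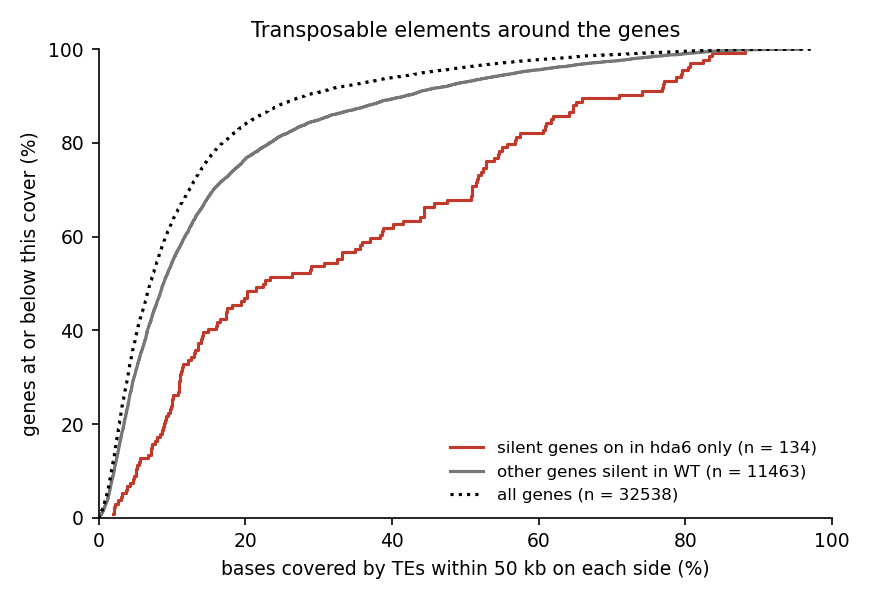
Cumulative share of genes (y axis, %) by the share of bases covered by TEs within 50 kb on each side (x axis, %), for the 134 genes (red), 11463 other silent nuclear genes (grey) and all 32538 nuclear genes (dotted). The red curve lies to the right throughout most of the range, with a median of 22.5% against 8.85% and 7.05%.

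Of the 26 genes, 12 overlapped a TE listed at 1 FPKM or more in hda6 (8.96% of the 134), beside 1.64% of other silent genes and 2.52% of all genes. In 10 of these the TE was listed at 0 in WT. In the authors' deposited table, higher calls in hda6 covered 4 of the 12 TEs, while 2 did not pass and 6 were not tested. The 4 called TEs follow. These levels come from the same libraries as the selection and are scaled within the TE tables, so they are not compared with gene levels. The TE AT5TE66495, of 593 bp, overlapping the Ulp1 gene AT5G45570, was listed at 0 FPKM in WT, sant1234-null, hhp1 and mbd124 and at 1332 in hda6 (adjusted p 0.000230 in the authors' deposited table). AT5TE39345, overlapping AT5G28810, was listed at 2477 and AT2TE77015, overlapping AT2G40955, at 602 FPKM in hda6, again at 0 elsewhere. AT3TE20780, overlapping AT3G14670, was listed at 0 FPKM in WT, 3.62 in sant1234-null, 4.31 in hhp1, 10.1 in mbd124 and 245 in hda6. It is 3419 bp long, and TEs cover 12.4% of AT3G14670, so most of it lies outside the gene. TEs cover 8.28% of AT2G40955.

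Neighbouring members, within 10 kb of each other, made 8 groups with 17 genes. The largest, on chromosome 3 from 11470374 to 11480033, held the nuclease gene AT3G29631 (32.8 FPKM in hda6), AT3G05845 (12.2) and AT3G29639 (7.37), of which the first and second overlap. Their H3ac log2 ratios of hda6 over WT were 0.71, 0.74 and 0.65, those of sant1234-null over WT were 0.59, 0.62 and 0.26, and none had a listed peak. Over AT3G29631 and AT3G05845 these rest on 47 and 49 reads in WT. AT1G36920 and AT1G36922 on chromosome 1 were listed at 9.12 and 9.82 FPKM in hda6 with H3ac of 1.80 and 2.32 RPKM, from 0.589 and 1.10 in WT and 2.36 and 3.06 in sant1234-null. Over both genes sant1234-null exceeded hda6. In 3 of the 8 groups members overlapped each other.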

How the data were processed

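RNA-seq (5 genotypes) and H3ac ChIP-seq (3 genotypes) were made with 3 samples per group, grouped by the labels. The deposited tables hold 1 value per genotype, so no replicate check was possible, although the design text calls the samples of a group biological replicates. Input values were not used, and 0 columns of per-sample values were left unused. The submitters' processing notes name TAIR10 and, without roles, MACS2 (2.1.1.20160309), bedtools, DiffBind, Bowtie2 (2.4.1), CASAVA, Cuffdiff, TopHat2 (2.0.12) and Cufflinks (2.2.1).

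RNA tables give FPKM and, per test, the p-value with its q-value (the adjusted p) by the authors, per the file headers in a Cuffdiff layout. They also give a test statistic, a score by the authors that was not used. Recomputed, the q-value was a Benjamini-Hochberg adjustment over genes marked as tested. Gene and TE tables were scaled separately. In the ChIP tables the deposited columns are the count of reads per gene, the length, the mapped reads and the RPKM made from them by the authors, per the file headers. Peaks carry concentrations and folds on a log2 scale by the authors, with p-value and FDR, per the file headers in a DiffBind layout. A value of 0 was treated as listed at 0, with no fold.

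H3ac ratios used RPKM with a pseudocount of 1, which understates changes at low levels. A peak or TE belonged to a gene it overlapped by 1 bp. Product names, biotypes and sequence came from RefSeq TAIR10.1, in which 133 of the 134 genes have the same start and end. Copies were found with BLAST 2.17.0 (megablast). Genes were named by rank in RNA level, H3ac ratio and peak fold, by distance to the bound, by class, by calls in hhp1 or mbd124, by list and by neighbourhood. The lowest ratios were named among genes with 50 reads or more. Overlap and cover code was tested on simulated coordinates. Python 3.11.15, pandas 2.3.3, NumPy 2.4.6, SciPy 1.17.1, Biopython 1.88 and matplotlib 3.10.9 were used. The members and gene lists were chosen with earlier results of these data known. No test was run across the members, since the RNA values had chosen them.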

Additional observations from a re-analysis of the deposited data

How the results depend on the processing

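No paired analysis was possible because the tables hold 1 value per genotype, and for the same reason no replicate could be left out. The number of genes meeting the bounds was 255 with an hda6 bound of 1 FPKM and 67 with one of 5. In hhp1 16 genes reached 0.5 FPKM and 3 reached 2, and in mbd124 13 and 3. The median log2 H3ac ratio of hda6 over WT lay between 0.58 and 0.75 over the pseudocounts, scalings and sets of genes tried, except among genes whose RNA the authors called, where it was 1.03. That of sant1234-null over WT was -0.11 when centred on all genes and -0.12 when scaled by a trimmed mean, and no ratio reversed. A ratio of 2 or more was met by 49 genes in hda6 and 3 in sant1234-null. The count at 1.5 in hda6, 75 of 134, was 43 of the 65 RNA-called genes. In sant1234-null, 14 of 134, it was 9 of 134 when centred, 8 of 95 genes free of overlap, 9 of 101 of 300 bp or longer and 5 of the 65 RNA-called genes. Counts in such subsets also fall because fewer genes are counted. Higher sant1234-null peaks numbered 5 at an FDR of 0.1, 9 with 1 kb added on each side, 0 of 95 genes free of overlap and 1 of the 65 RNA-called genes. The counts of higher hda6 peaks lay between 30 and 53 and stayed within 1.5 times of 45. A TE covered 50% or more of the gene for 4 genes (2.99%), beside 2.79% of other silent genes and 1.18% of all genes. By this stricter measure the share was close to that of other silent genes. TEs lay within 1 kb for 89 genes and overlapped 16 of the 65 RNA-called genes, around which median TE cover was 38.7%. The sets free of overlap, of 300 bp or longer, without a copy and with an RNA call were chosen after seeing the data. RNA depth is unknown, and the fewest H3ac reads over a gene were 18.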
